A study of Mus musculus with 25 samples.

Results

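Cultured cEND cells that had received only vehicle were compared with RNA from ribosomes tagged in the hypothalamus of mice on a control diet, both from 1 mouse study. Both are labelled as endothelial, and the markers below go against that label for the tagged ribosomes, where astrocyte genes far outweighed endothelial ones. The comparison used 7 of the study's 25 libraries, chosen by their labels alone. They were the 3 cEND libraries with DMSO, from passages 12, 14 and 18, and the 4 control-diet IP libraries. The cEND line is an immortalised endothelial line from mouse brain capillaries, and its replicates are passages of that line rather than different animals. The IP libraries came from 12-week-old mice of the genotype Slco1c1Cre+/-;ROSA26lSlL10aGFP+/-, in which a tamoxifen-inducible Cre driven by the Slco1c1 promoter switches on the ribosomal protein L10a fused to GFP. Hypothalami were taken 3 weeks after tamoxifen and after 3 days of diet, each library pooled 4 mice (2 male and 2 female), and the tagged ribosomes were precipitated with an antibody against GFP. Levels in libraries of the same study that the comparison did not use are given beside it where they help: whole hypothalamus lysate of control-diet mice (INPUT), the IP of mice on a high-fat diet, and cEND cells given WZB117 (0.5 or 10 µM), which blocks the glucose transporter Glut1.

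The capillary endothelium of the brain seals its cell contacts with tight junctions and controls passage with a set of transporters. Wnt ligands from neural cells, acting through Frizzled receptors and beta-catenin, set up and keep this barrier state, and Notch signalling between neighbouring endothelial cells patterns the vessels. Astrocytes ensheath these capillaries with their endfeet, so that vessel and glial RNA are easily obtained together from tissue.

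The systems differ in material (RNA of cultured cells against ribosome-bound RNA of tissue), in the deposited table and in preparation at once, and these cannot be told apart from the difference between cultured cells and tissue. Attention was therefore kept to large gaps. A gene was called where its adjusted p was under 0.05 in edgeR's quasi-likelihood test with Benjamini-Hochberg adjustment, its difference was at least 8-fold (a log2 fold change of 3), and no library of one group lay within the range of the other. Log2 fold changes are cEND over IP and are given ± their standard error. Levels are CPM, counts scaled to a protein-coding total of 1e6 per library, and in bulk RNA fewer cells of a type cannot be told apart from less RNA per cell. In units of 1e6, each library held 22.5 to 32.0 such counts in cEND cells and 25.4 to 36.9 in the IP, so that 3 counts, the limit used for a gene listed at 0, stood for 0.0938 to 0.133 CPM in cEND cells and 0.0812 to 0.118 CPM in the IP. Across genes, Spearman's rho was 0.978 to 0.981 between cEND libraries, 0.990 to 0.991 between IP libraries and 0.734 to 0.739 between the systems.

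Of 21407 shared protein-coding genes, 14622 were tested and 13166 of these (90.0%) passed the adjusted p alone, which is why the 8-fold limit carries the description. With it, 1882 genes were called higher in cEND cells (12.9% of those tested) and 3123 lower (21.4%). The median log2 fold change of all tested genes was 0.17, with quartiles of -2.20 and 1.73. Among the lower calls, 1078 genes had 0 counts in every cEND library, and 89 of the higher calls had 0 counts in every IP library. In libraries the comparison had not used, 1654 of the higher calls (87.9%) were again at least 8-fold apart with no overlap between 6 WZB117-treated cEND libraries and 4 high-fat-diet IP libraries, as were 2766 of the lower calls (88.6%). These libraries share the line, the mouse model and the tables, so the counts describe the gap between the systems again and leave its source untested.

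Endothelial identity genes were far more abundant in cEND cells. Pecam1, an adhesion molecule of endothelial contacts (chr11:106654217-106750628 in GRCm38), had 1292, 1695 and 1727 CPM in cEND cells, against 10.8, 9.94, 7.95 and 9.53 CPM in the IP. Cdh5, the cadherin of endothelial adherens junctions (chr8:104101625-104144511), had 1020, 938 and 1121 CPM in cEND cells, against 7.49, 7.34, 5.31 and 10.5 CPM in the IP. Cldn5, the main claudin of brain endothelial tight junctions (chr16:18776847-18778262), had 201, 125 and 269.9 CPM in cEND cells, against 5.58, 3.84, 2.64 and 4.27 CPM in the IP. The groups did not overlap for any of these genes, with a log2 fold change of 7.36 ± 0.16 for Pecam1 (adjusted p = 8.32e-12), 7.07 ± 0.21 for Cdh5 (adjusted p = 2.02e-10) and 5.60 ± 0.32 for Cldn5 (adjusted p = 2.95e-07). Slc2a1, which encodes Glut1 (chr4:119108711-119137983), went the other way and by less. Its level was 89.1, 123 and 102 CPM in cEND cells, against 152, 177, 145 and 177 CPM in the IP, without overlap but short of the 8-fold limit (log2 fold change -0.64 ± 0.12, adjusted p = 0.000456).

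The other pan-endothelial genes largely followed Pecam1. Of 24 list members, all tested, 20 were called higher in cEND cells and 1 lower, with a median log2 fold change of 6.86. Together they made up 1.21 to 1.55% of protein-coding counts in cEND cells and 0.0147 to 0.0237% in the IP. The receptor genes Tie1 (9.38 ± 0.26) and Kdr (7.55 ± 0.19), the nitric oxide synthase gene Nos3 (9.06 ± 0.19) and the lectin gene Clec14a (9.13 ± 0.25) had the largest log2 fold changes among members named here. Erg, an endothelial transcription factor, stood at 279.9, 298 and 364 CPM in cEND cells, against 23.7, 20.4, 18.5 and 17.9 CPM in the IP, a smaller gap (log2 fold change 3.96 ± 0.13, adjusted p = 1.15e-10). Egfl7, a secreted endothelial factor, had 1147, 1233 and 1401 CPM in cEND cells, against 10.8, 7.66, 6.14 and 7.34 CPM in the IP (log2 fold change 7.30 ± 0.19, adjusted p = 4.74e-11). The angiopoietin receptor Tek had 318, 219.8 and 437 CPM in cEND cells, against 8.13, 7.20, 3.74 and 7.79 CPM in the IP (log2 fold change 5.59 ± 0.32, adjusted p = 3.47e-07).

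Among the members outside the higher calls, Vwf, von Willebrand factor, was low in both systems. Its levels were 4.31, 3.19 and 3.50 CPM in cEND cells, against 1.24, 1.76, 0.787 and 2.99 CPM in the IP, with a log2 fold change of 1.11 ± 0.37 (adjusted p = 0.0152). The related transcription factor genes Sox7 (2.53 ± 0.16) and Sox18 (2.37 ± 0.31) passed the adjusted p in favour of cEND cells without reaching 8-fold. Sox17, of the same family and linked to arterial and barrier endothelium, was the lower call, at 0.266, 0 and 0 CPM in cEND cells, against 4.61, 4.36, 2.20 and 4.08 CPM in the IP (log2 fold change -5.57 ± 0.73, adjusted p = 3.31e-05; -9.79 without passage 12 and -4.89 without passage 18). In the IP, pool 3 had the lowest level of Pecam1, Cdh5, Cldn5, Kdr, Tek and Flt1, the receptor of VEGF-A and placental growth factor (581, 531 and 613 CPM in cEND cells, against 33.0, 31.6, 17.7 and 35.4 CPM in the IP).

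**Figure D1:**
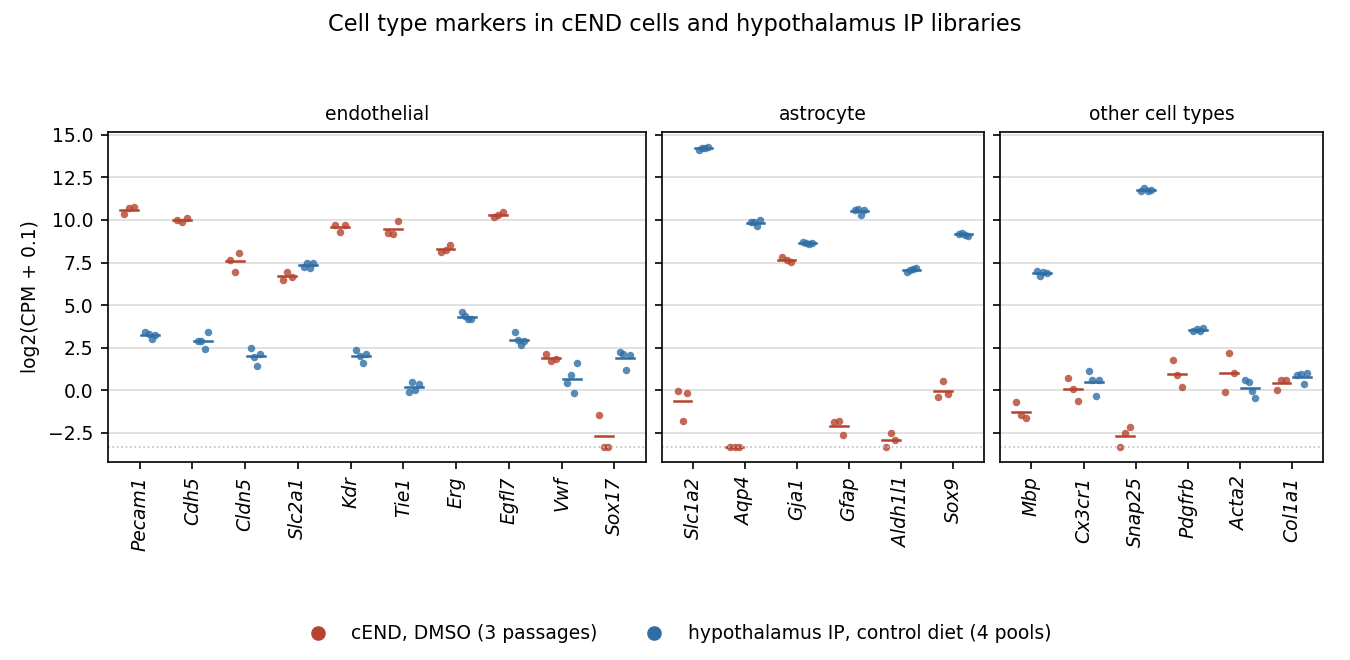
Levels of cell type markers as log2(CPM + 0.1) in each library, cEND left of IP for every gene; short bars are means of the log2 values and the dotted line marks 0 CPM. Endothelial genes other than Slc2a1 and Sox17 lie higher in cEND cells, Vwf by the smallest step, and Slc1a2, Aqp4, Gfap, Aldh1l1 and Sox9 lie below 2 CPM in cEND cells and above 100 CPM in the IP.

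The IP held far more RNA of astrocyte genes than of pan-endothelial genes, although its libraries carry the label of endothelial cells. The 26 astrocyte genes made up 0.0263 to 0.0312% of protein-coding counts in cEND cells and 8.75 to 9.76% in the IP. Of these members, all tested, 25 were called lower in cEND cells and 0 higher, with a median log2 fold change of -13.44, or -12.33 when genes at 0 are set to the limit of 3 counts per library. The 5 most abundant genes of the IP were Ndrg2, Slc1a2, Sparc, Aldoc and Sparcl1, of which Ndrg2, Slc1a2, Aldoc and Sparcl1 were on this list. Slc1a2, the main glutamate transporter of astrocytes, had 0.888, 0.190 and 0.813 CPM in cEND cells, against 17286, 19017, 19102 and 19916 CPM in the IP (log2 fold change -14.86 ± 0.34, adjusted p = 1.62e-11).

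Aqp4, the water channel of astrocyte endfeet, had 0 in each of the 3 cEND libraries, against 944, 936, 801 and 1005 CPM in the IP, so that cEND cells were at least 8110-fold lower. Gfap, the intermediate filament of astrocytes, had 0.178, 0.190 and 0.0625 CPM in cEND cells, against 1516, 1579, 1233 and 1530 CPM in the IP (log2 fold change -13.34 ± 0.24, adjusted p = 3.87e-12). Aldh1l1, a folate enzyme used as an astrocyte marker, had 3 counts in all cEND libraries together and 123, 132, 141 and 148 CPM in the IP, a level in cEND cells lower by 3655-fold (interval 1250 to 17724). Its fitted log2 fold change was -11.68, and -12.55 without passage 14. The interval is a 95% exact Clopper-Pearson interval and, like the limits at 0, covers counting error only. For Sox9, a transcription factor of astrocytes and neural progenitors, 0.666, 1.37 and 0.750 CPM in cEND cells, against 586, 609, 544 and 533 CPM in the IP were found. The member that was not called was Gja1, encoding the gap junction protein connexin 43, which cEND cells also held at a high level: 223, 201 and 187 CPM in cEND cells, against 413, 399, 391 and 404 CPM in the IP (log2 fold change -0.98 ± 0.09, adjusted p = 6.60e-07). Glul, glutamine synthetase, was the other member present above 50 CPM in every cEND library, at 54.2, 53.7 and 60.3 CPM in cEND cells, against 5276, 6008, 6355 and 5375 CPM in the IP (log2 fold change -6.68 ± 0.14, adjusted p = 7.47e-12).

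Divided by the merged length of all annotated exons of a gene, mean levels in cEND cells were 252 CPM per kb for Pecam1 and 244 for Cdh5. In the IP the same quantity was 1.53 for Pecam1 and 1.82 for Cdh5, while Slc1a2 stood at 1434 and Aldoc, the brain form of aldolase, at 2698. As a percentile of CPM among the 21407 genes, Pecam1 ranked at 99.9 in cEND cells and 56.6 in the IP, and Cldn5 at 94.1 in cEND cells and 47.9 in the IP. Compared with INPUT, the IP held more of both kinds of RNA: pan-endothelial genes made up 0.0147 to 0.0237% of counts in the IP and 0.00654 to 0.00699% in INPUT, and astrocyte genes 8.75 to 9.76% in the IP and 1.36 to 1.76% in INPUT. A difference between cEND cells and the IP in any gene that astrocytes express can therefore not be assigned to endothelium in the data, and the part of glial RNA in single differences was not tested.

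Markers of several other brain cell types were also lower in cEND cells. Neuron, oligodendrocyte and microglia lists took a smaller share of counts in the IP than in INPUT. Precursor and tanycyte lists took a larger one, though some of their members were lower in the IP than in INPUT. For neurons, 13 of 16 members were called lower and 0 higher (median log2 fold change -10.30, or -9.01 with genes at their limit). Their shares were 0.0315 to 0.0622% in cEND cells, 0.606 to 0.640% in the IP and 1.81 to 1.99% in INPUT. Snap25, a synaptic vesicle fusion protein, had 0, 0.0759 and 0.125 CPM in cEND cells, against 3302, 3772, 3354 and 3396 CPM in the IP. One neuronal list member, Nefl, a neurofilament subunit, was abundant in cEND cells, with 366, 286 and 584 CPM in cEND cells, against 185, 173, 180.0 and 202 CPM in the IP (log2 fold change 1.16 ± 0.21, adjusted p = 0.000455).

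For oligodendrocytes, 14 of 15 members were called lower and 0 higher (median -7.39, or -5.89 with limits), with shares of 0.00241 to 0.00268% in cEND cells, 0.112 to 0.118% in the IP and 0.476 to 0.532% in INPUT. Within the tissue the members differed. The transcription factor Olig1 had 0 counts in every cEND library, 254 to 281 CPM in the IP and 119 to 136 CPM in INPUT, whereas Mbp, myelin basic protein, had 0.219 to 0.533, 103 to 131 and 1373 to 1557 CPM in the same order. Cnp, a phosphodiesterase of myelin, had 471 to 544 CPM in the IP and 459 to 510.2 CPM in INPUT, which overlap. Precursor markers gave 1 member of 7 called higher and 6 lower (median -7.78, or -5.64 with limits), with shares of 0.00384 to 0.00971% in cEND cells, 0.0940 to 0.137% in the IP and 0.0421 to 0.0511% in INPUT. The IP share rested mostly on Ptprz1, at 681 to 1069 CPM, and Bcan, at 227 to 269 CPM, so it does not stand for the list as a whole. Gpr17, Neu4, Cspg4 and Lhfpl3 were lower in the IP than in INPUT without overlap, with means of 25.5 and 86.4 CPM for Lhfpl3. The member called higher was Pdgfra, a platelet-derived growth factor receptor also found in fibroblasts, at 95.7, 38.6 and 38.2 CPM in cEND cells, against 2.06, 1.41, 2.32 and 3.06 CPM in the IP (log2 fold change 4.72 ± 0.42, adjusted p = 8.78e-06). Passage 12 was the highest cEND library for it.

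Of 15 microglia and macrophage markers, 14 were tested, 10 were called lower and 0 higher (median -6.54, or -4.07 with limits). Complement gene C1qb had 0 in each of the 3 cEND libraries, against 5.02, 5.28, 4.37 and 6.39 CPM in the IP, so cEND cells were at least 46.3-fold lower, and INPUT held 84.4 to 121 CPM. Cx3cr1, the microglial chemokine receptor, was near 1 CPM in both systems, at 1.55, 0.949 and 0.563 CPM in cEND cells, against 2.10, 1.43, 0.709 and 1.44 CPM in the IP (log2 fold change -0.50 ± 0.43, adjusted p = 0.279). All 7 tested choroid plexus members of 8 were called lower (median -8.39, or -7.96 with limits). Ttr, the thyroid hormone carrier made by choroid plexus, was at 0 in every cEND library and ranged widely over the IP pools, at 59.1, 43.8, 23.9 and 99.5 CPM.

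Tanycyte and ependymal markers were mixed: of 12 members, 11 were tested, 3 were called higher and 6 lower (median -4.86). Among all tested genes, 12.9% were called higher and 21.4% lower. Their shares were 0.0474 to 0.0690% in cEND cells, 0.0222 to 0.0268% in the IP and 0.0139 to 0.0145% in INPUT. Nes, described next, made up most of the share in every cEND library, so that share does not stand for the list as a whole. The higher calls included Nes, the intermediate filament nestin that tanycytes share with proliferating endothelium, at 392, 635 and 458 CPM in cEND cells, against 7.26, 5.36, 5.79 and 8.77 CPM in the IP (log2 fold change 6.19 ± 0.23, adjusted p = 2.84e-09). The lower calls included Dio2, the thyroid hormone activating enzyme, with 1 count over all cEND libraries and 122, 153, 114 and 147 CPM in the IP. Dio2 made up more of the IP share than any other member. It was higher in the IP than in INPUT (27.8 to 36.9 CPM), as was Foxj1. Gpr50 and Ccdc153 were lower in the IP than in INPUT, with means of 4.06 and 10.3 CPM for Gpr50.

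Mural and connective tissue lists took small shares of counts in both systems. Of 13 pericyte and smooth muscle members, 8 were tested, 2 were called lower and 0 higher (median -0.24, or 0.18 without IP pool 2). Among all tested genes, 21.4% were called lower and 12.9% higher. The shares were 0.000710 to 0.00143% in cEND cells, 0.00222 to 0.00314% in the IP and 0.00889 to 0.00941% in INPUT. Pdgfrb, the pericyte growth factor receptor, had 3.33, 1.78 and 1.06 CPM in cEND cells, against 10.9 to 12.3 CPM over the IP pools (log2 fold change -2.53 ± 0.31, adjusted p = 1.54e-05). Acta2, smooth muscle actin, had 0.844, 4.52 and 1.91 CPM in cEND cells, against 1.42, 1.30, 0.866 and 0.643 CPM in the IP (log2 fold change 1.19 ± 0.50, adjusted p = 0.0457). Neither gene was called. Pdgfrb passed the limit without passage 12 (-3.04) and with DESeq2 (-3.01), and Acta2 had 0.39 without passage 14. Of 10 fibroblast members, 7 were tested, 1 was called higher (Pdgfra, described above) and 3 lower (median -1.42), with shares of 0.00404 to 0.0101% in cEND cells, 0.0157 to 0.0173% in the IP and 0.0358 to 0.0412% in INPUT. The collagen gene Col1a1 lay at 0.933, 1.40 and 1.44 CPM in cEND cells, against 1.76, 1.81, 1.22 and 1.89 CPM in the IP (log2 fold change -0.40 ± 0.28, adjusted p = 0.196). Col1a2, another collagen gene, was called lower. It had 0.0444, 0.304 and 0 CPM in cEND cells, against 7.38, 9.61, 5.24 and 8.92 CPM in the IP. Its log2 fold change was -6.07 ± 0.58 (-8.42 without passage 14 and -5.38 without passage 18). Fbln1 was called lower as well (-4.32 ± 0.66, or -6.15 without passage 12).

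**Figure D2:**
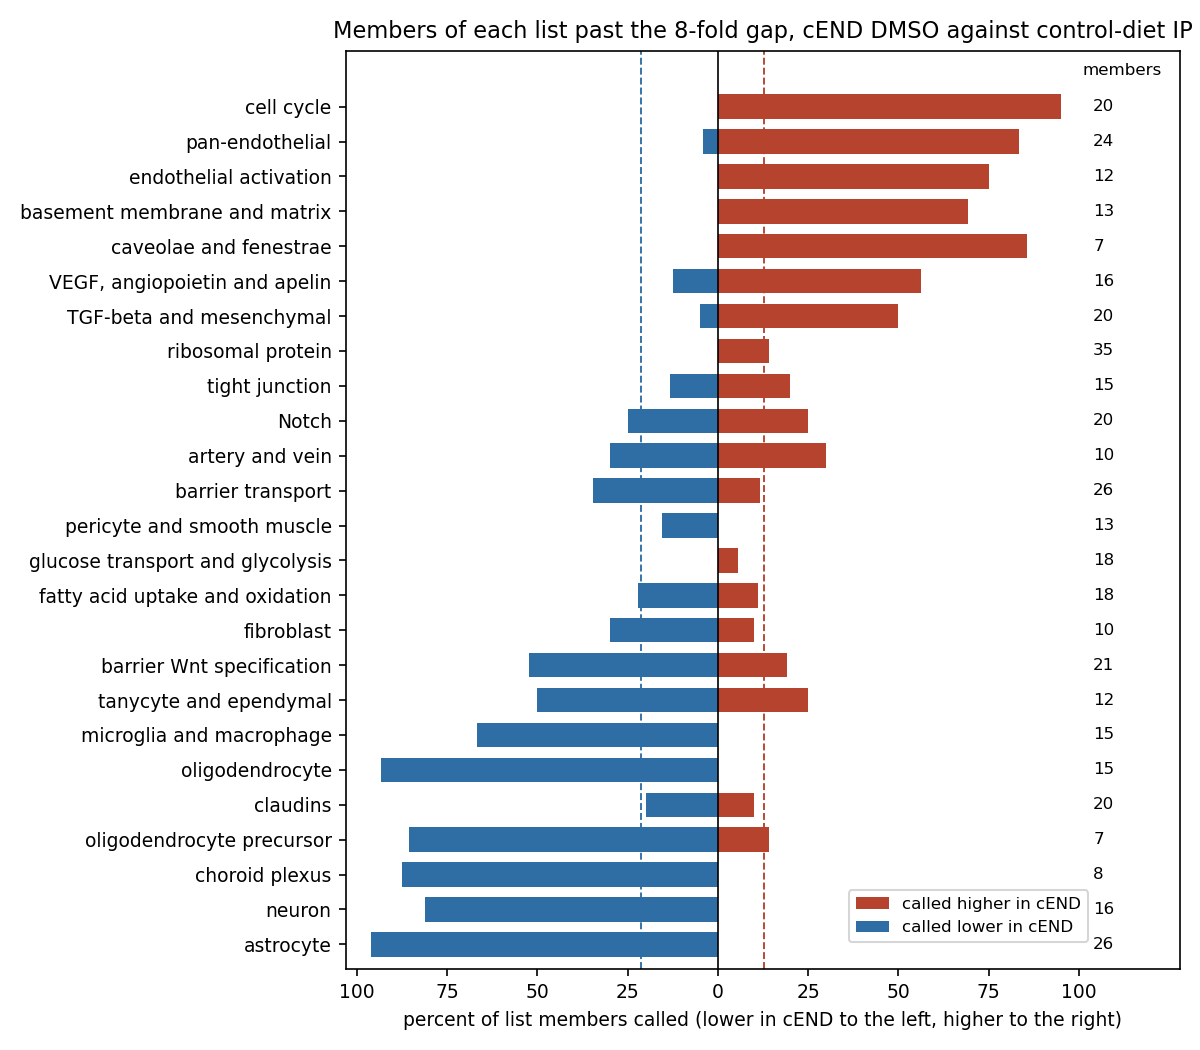
Share of the members of each list that was called, lower in cEND cells to the left and higher to the right, with the number of members at the right edge and lists ordered by median log2 fold change. Dashed lines mark the shares of all tested genes called lower (21.4%) and higher (12.9%); 19 of 20 cell cycle genes were called higher and 25 of 26 astrocyte genes lower.

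Of 15 tight junction genes, 13 were tested, 3 were called higher and 2 lower (12.9% and 21.4% of all tested genes were), with a median log2 fold change of 1.24. Besides Cldn5, the higher calls were F11r, which encodes junctional adhesion molecule A, and Cgnl1, which encodes the junctional adaptor paracingulin. F11r had 293, 210.2 and 275 CPM in cEND cells, against 3.71, 2.90, 1.77 and 2.95 CPM in the IP (log2 fold change 6.51 ± 0.21, adjusted p = 5.84e-10). Cgnl1 had 637, 987 and 789 CPM in cEND cells, against 13.8, 9.18, 8.23 and 10.9 CPM in the IP (log2 fold change 6.26 ± 0.22, adjusted p = 1.43e-09). Jam2, junctional adhesion molecule B, was called lower, at 28.1, 30.7 and 62.9 CPM in cEND cells, against 411, 427, 455 and 441 CPM in the IP (log2 fold change -3.41 ± 0.29, adjusted p = 3.49e-06).

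Occludin, the transmembrane partner of claudins encoded by Ocln, had 18.7, 20.9 and 19.0 CPM in cEND cells, against 4.01, 5.12, 2.44 and 3.52 CPM in the IP, without overlap but under the limit (log2 fold change 2.36 ± 0.20, adjusted p = 4.75e-07). The scaffold gene Tjp1 (ZO-1) was abundant in both systems, at 258, 209 and 246 CPM in cEND cells, against 377, 408, 397 and 436 CPM in the IP (log2 fold change -0.77 ± 0.10, adjusted p = 1.60e-05). Marveld3, the other lower call, had 0 counts in cEND cells and under 1 CPM in the IP. Cldn1 and Cldn3 were too low to be tested.

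Cldn5 and Cldn12 were the claudins above 50 CPM in every cEND library, and Cldn10 was the claudin above 50 CPM in every IP pool. Of 20 claudins, 7 were tested, 2 were called higher and 4 lower (median -7.39, or -2.75 with genes at their limit). Of all tested genes, 12.9% were called higher and 21.4% lower. The median rests on few genes, most of them low in both systems. Cldn12, a widely expressed claudin, had 95.8, 99.3 and 66.8 CPM in cEND cells, against 28.7, 28.6, 28.9 and 30.1 CPM in the IP (log2 fold change 1.59 ± 0.13, adjusted p = 2.79e-07). Cldn10, which is also on the astrocyte list, had 0 in each of the 3 cEND libraries, against 82.0, 85.9, 90.4 and 85.0 CPM in the IP, at least 755-fold lower in cEND cells. Cldn11, the claudin of myelin, had 1 count over all cEND libraries, against 2.43, 2.76, 2.56 and 3.55 CPM in the IP. Cldn19 had 0 in each of the 3 cEND libraries, against 4.16, 5.25, 2.40 and 3.10 CPM in the IP. Cldn15, at 1.55, 1.97 and 2.63 CPM in cEND cells, against 0.0749, 0, 0 and 0.0756 CPM in the IP, was the other higher call (log2 fold change 5.71 ± 0.59, adjusted p = 2.30e-06), and Cldn2 the other lower call. The other 13 claudins did not pass the filter on low counts in these 7 libraries.

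Of 26 transporter genes, all tested, 3 were called higher and 9 lower. The share called higher is no more than that of all tested genes (12.9%), and 21.4% of all were called lower. The list had a median log2 fold change of 0.24, close to that of all genes and below 0 with TMM, upper-quartile or DESeq2 scaling. The 3 higher calls were the ATP-binding cassette efflux transporters Abcg2 (breast cancer resistance protein), Abcc4 and Abcc1 (multidrug resistance proteins). Abcg2 had 136, 122 and 125 CPM in cEND cells, against 9.32, 9.50, 8.19 and 11.2 CPM in the IP (log2 fold change 3.74 ± 0.11, adjusted p = 6.64e-11). Abcc4 had 91.0, 87.4 and 91.5 CPM in cEND cells, against 4.76, 6.44, 5.43 and 8.89 CPM in the IP (log2 fold change 3.82 ± 0.18, adjusted p = 4.18e-09), and Abcc1 a log2 fold change of 4.15 ± 0.10 (adjusted p = 1.65e-11). Abcb1a, which encodes P-glycoprotein, had 67.8, 38.7 and 31.9 CPM in cEND cells, against 9.81, 8.66, 6.54 and 10.1 CPM in the IP; the groups did not overlap, but the gap was under 8-fold (log2 fold change 2.39 ± 0.26, adjusted p = 1.48e-05).

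Slco1c1, the thyroid hormone transporter whose promoter drives the Cre of the mice (chr6:141524368-141570177), had 0 in each of the 3 cEND libraries, against 114, 131, 95.8 and 133 CPM in the IP, at least 1044-fold lower in cEND cells. In INPUT it had 14.5 to 20.7 CPM. Slco1a4, an organic anion transporter of brain capillaries, had 0.222, 0 and 0.0938 CPM in cEND cells, against 18.8, 17.2, 10.5 and 17.7 CPM in the IP (log2 fold change -7.27 ± 0.46, adjusted p = 7.42e-08; -8.17 without passage 12). Mfsd2a, the transporter of lysophosphatidylcholine with docosahexaenoic acid that restrains transcytosis, had 0.444, 0.114 and 0.219 CPM in cEND cells, against 28.7, 47.1, 31.9 and 56.1 CPM in the IP (log2 fold change -7.34 ± 0.42, adjusted p = 9.61e-08). Each of these carriers was under 0.5 CPM in every cEND library and above 10 CPM in every IP pool.

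Slc22a8 (organic anion transporter 3) had 1 count over all cEND libraries and 12.8, 11.9, 5.00 and 12.5 CPM in the IP. Slc38a3, a glutamine transporter that astrocytes also use, had 0.755, 0.607 and 0.656 CPM in cEND cells, against 118, 111, 133 and 132 CPM in the IP (log2 fold change -7.52 ± 0.15, adjusted p = 5.69e-12). Slc1a1, Slc19a3 and Slc38a5 were lower calls as well, of which Slc19a3 was short of the limit without passage 12 (-2.96), with Slc38a5 at 0.433 to 0.945 CPM in the IP.

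Several carriers of nutrients were abundant in both systems. Slc7a5, the large neutral amino acid transporter, had 123, 133 and 73.9 CPM in cEND cells, against 50.7, 49.7, 50.7 and 61.6 CPM in the IP (log2 fold change 1.05 ± 0.18, adjusted p = 0.000342). Slc16a1, the monocarboxylate transporter MCT1, had 154, 146 and 113 CPM in cEND cells, against 22.1, 20.8, 17.6 and 23.0 CPM in the IP (log2 fold change 2.72 ± 0.13, adjusted p = 2.57e-09). Tfrc, the transferrin receptor, had 245, 255 and 206 CPM in cEND cells, against 81.7, 75.8, 71.7 and 87.1 CPM in the IP (log2 fold change 1.57 ± 0.10, adjusted p = 3.50e-08). All of these lay higher in cEND cells without overlap and short of 8-fold. Insr, the insulin receptor, differed by less than could be told from the spread, at 59.2, 73.0 and 81.2 CPM in cEND cells, against 57.1, 60.7, 61.3 and 63.0 CPM in the IP (log2 fold change 0.23 ± 0.11, adjusted p = 0.0621), and its sign turned with TMM, upper-quartile or DESeq2 scaling.

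Lrp1, the lipoprotein receptor that clears amyloid beta, was a lower call in which 1 library stood apart. It had 28.5, 1.21 and 1.41 CPM in cEND cells, against 339, 357, 374 and 520.1 CPM in the IP, so that passage 12 lay far above the other passages (log2 fold change -5.31 ± 1.24, adjusted p = 0.00662; -8.23 without passage 12). Passage 12 was also the highest for Clu (clusterin) and Cdh2 (N-cadherin), called lower, and for Lcn2 (lipocalin 2), called higher, with 19.6, 2.39 and 3.31 CPM for Clu, 12.1, 2.01 and 0.844 CPM for Cdh2 and 212, 15.0 and 36.9 CPM for Lcn2 at passages 12, 14 and 18. In the IP, Clu had 1694 to 2111 CPM, Cdh2 93.7 to 116 CPM and Lcn2 0.487 to 5.00 CPM. Their log2 fold changes were -7.83 ± 0.92 for Clu (-9.34 without passage 12), -4.45 ± 0.85 for Cdh2 (-6.22 without passage 12) and 5.20 ± 1.21 for Lcn2 (5.79 without IP pool 3 and 3.45 without passage 12).

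**Figure D3:**
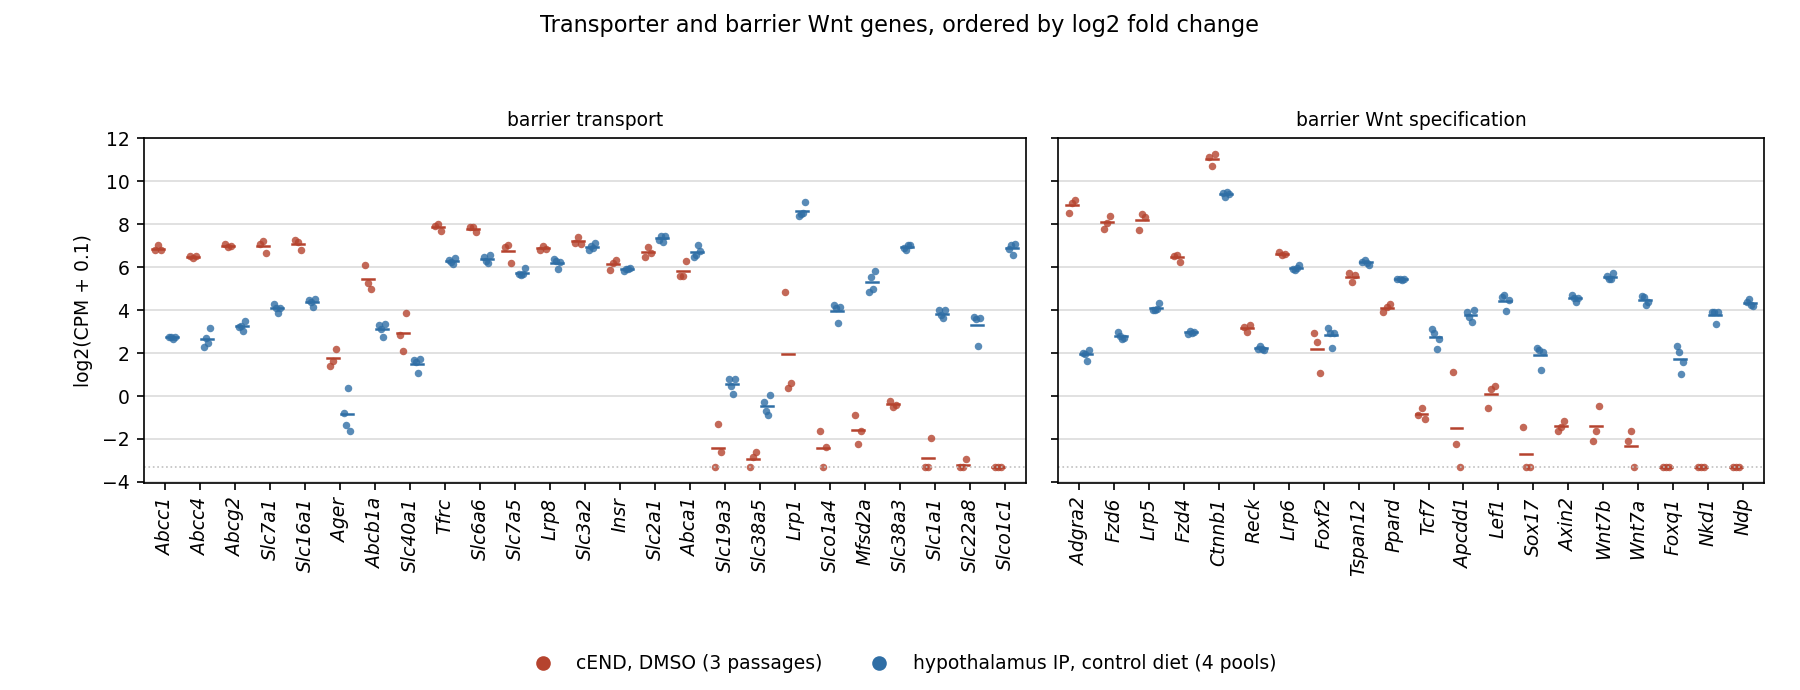
Levels of transporter and barrier Wnt genes, all but 1 of each list, as log2(CPM + 0.1) in each library, ordered by log2 fold change, cEND left of IP; bars are means of the log2 values and the dotted line marks 0 CPM. Efflux pumps and Wnt receptors stand at the left with cEND cells higher, and Slco1c1, Slc22a8, Ndp and Nkd1 at the right with cEND cells at or near 0.

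Within the barrier Wnt pathway, receptors were high in cEND cells while ligands, nuclear partners and feedback targets were near 0. Of 21 members, all tested, 4 were called higher and 11 lower, with a median log2 fold change of -3.86. Among all tested genes, 12.9% were called higher and 21.4% lower. The co-receptor gene Lrp6 was present in both systems and not called (log2 fold change 0.66 ± 0.09). The 4 higher calls were Fzd4, the Frizzled receptor of norrin, Fzd6, another Frizzled receptor, the co-receptor Lrp5, and Adgra2 (Gpr124), the co-activator of Wnt7 signalling. Fzd4 had 93.0, 95.2 and 76.6 CPM in cEND cells, against 7.41, 7.99, 7.64 and 7.83 CPM in the IP (log2 fold change 3.51 ± 0.11, adjusted p = 6.64e-11). Adgra2 had 371, 512 and 564 CPM in cEND cells, against 3.97, 3.76, 2.99 and 4.39 CPM in the IP (log2 fold change 6.99 ± 0.18, adjusted p = 4.83e-11). Lrp5 had 211, 357 and 323 CPM in cEND cells, against 16.0, 15.8, 16.5 and 20.2 CPM in the IP (log2 fold change 4.12 ± 0.18, adjusted p = 5.33e-09).

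Ctnnb1, beta-catenin, which also serves adherens junctions, was abundant in both systems with no overlap, at 2260, 1702 and 2503 CPM in cEND cells, against 706, 620.0, 723 and 676 CPM in the IP (log2 fold change 1.66 ± 0.13, adjusted p = 1.81e-07). Tspan12, the norrin co-activator, was of like size in both, at 52.6, 39.9 and 50.4 CPM in cEND cells, against 76.5, 81.1, 72.3 and 69.4 CPM in the IP (log2 fold change -0.65 ± 0.11, adjusted p = 0.000172). The ligand genes Wnt7a, Wnt7b and Ndp (norrin), which neural and glial cells make, were lower calls. Wnt7b had 0.133, 0.228 and 0.625 CPM in cEND cells, against 47.7, 43.2, 43.1 and 53.2 CPM in the IP (log2 fold change -7.03 ± 0.29, adjusted p = 1.42e-09; -7.96 without passage 18). Ndp had 0 in each of the 3 cEND libraries, against 20.9, 22.6, 18.8 and 18.1 CPM in the IP, at least 177-fold lower in cEND cells.

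The nuclear partner and target genes were lower in cEND cells, as the ligands were. Lef1, a DNA-binding partner of beta-catenin, had 0.577, 1.14 and 1.28 CPM in cEND cells, against 24.0, 25.8, 15.7 and 22.3 CPM in the IP (log2 fold change -4.42 ± 0.27, adjusted p = 3.05e-08). Its relative Tcf7 had 0.444, 0.569 and 0.375 CPM in cEND cells, against 8.69, 7.63, 4.45 and 6.20 CPM in the IP (log2 fold change -3.86 ± 0.31, adjusted p = 2.44e-07). Axin2, a feedback inhibitor induced by the pathway, had 0.222, 0.266 and 0.344 CPM in cEND cells, against 21.0 to 25.7 CPM in the IP (log2 fold change -6.34 ± 0.19, adjusted p = 6.88e-11). Nkd1, another feedback inhibitor, had 0 in each of the 3 cEND libraries, against 15.0, 15.1, 10.2 and 15.0 CPM in the IP, at least 122-fold lower. Among transcription factors enriched in brain endothelium, Foxq1 had 0 in each of the 3 cEND libraries, against 4.87, 3.98, 1.97 and 2.91 CPM in the IP. Foxf2, of the same kind, was present in both, at 7.55, 5.54 and 2.03 CPM in cEND cells, against 8.91, 7.63, 4.61 and 7.56 CPM in the IP (log2 fold change -0.53 ± 0.40, adjusted p = 0.231).

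For Lef1, Axin2 and Nkd1 the levels of the IP and INPUT overlapped, with INPUT at 20.0 to 38.6 CPM for Lef1, 23.3 to 26.6 CPM for Axin2 and 12.3 to 15.8 CPM for Nkd1. Foxq1, in contrast, stood at 1.97 to 4.87 CPM in the IP and 0.283 to 0.627 CPM in INPUT. With WZB117, cEND cells held 0.151 to 1.44 CPM of Lef1 and 0.170 to 0.455 of Axin2.

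Genes of caveolae and of the fenestral diaphragm were mostly called higher in cEND cells. Of 7 members, all tested, 6 were called higher and 0 lower (median 4.34). Plvap, the protein of fenestral and stomatal diaphragms, had 458, 662 and 671 CPM in cEND cells, against 4.64, 4.41, 4.41 and 4.12 CPM in the IP (log2 fold change 7.08 ± 0.16, adjusted p = 1.03e-11). Cav1, the coat protein of caveolae, had 548, 1118 and 884 CPM in cEND cells, against 19.7, 13.8, 13.0 and 14.1 CPM in the IP (log2 fold change 5.81 ± 0.27, adjusted p = 3.31e-08). Cavin1, which shapes them, had a log2 fold change of 4.49 ± 0.14 (adjusted p = 7.61e-11). The groups did not overlap for any of these genes.

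Notch4 and 3 Notch ligands were called higher in cEND cells, while Notch3 and 4 target genes were called lower. Of 20 members, all tested, 5 were called higher and 5 lower (median 0.55). Of all tested genes, 12.9% were called higher and 21.4% lower, so the share of members called lower was near that of all genes. Among receptors, Notch1 had 276, 362 and 349 CPM in cEND cells, against 63.5, 64.8, 75.4 and 88.3 CPM in the IP (log2 fold change 2.17 ± 0.14, adjusted p = 3.39e-08). Notch4, the receptor largely restricted to endothelium, had 280.1, 289.9 and 382 CPM in cEND cells, against 5.13, 4.95, 3.54 and 5.07 CPM in the IP (log2 fold change 6.08 ± 0.16, adjusted p = 4.27e-11). Notch3, the receptor of mural cells that astrocytes can also express, had 3 counts in all cEND libraries and 26.4, 27.1, 27.0 and 34.5 CPM in the IP, lower in cEND cells by 771-fold (interval 264 to 3743). Its fitted log2 fold change was -9.43, and -10.39 without passage 12 and -8.77 without passage 18.

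Among ligands, Dll4, the ligand of tip and arterial cells, had 22.6, 9.11 and 33.6 CPM in cEND cells, against 0.599, 0.568, 0.0787 and 0.492 CPM in the IP (log2 fold change 5.60 ± 0.57, adjusted p = 1.63e-05). Jag1 had 196, 168 and 155 CPM in cEND cells, against 5.24, 5.82, 4.33 and 6.47 CPM in the IP (log2 fold change 4.98 ± 0.14, adjusted p = 4.53e-11). Dll1 had a log2 fold change of 7.82 ± 0.27 (adjusted p = 9.04e-10), and the glycosyltransferase gene Mfng, which tunes receptors to ligands, one of 6.07 ± 0.19 (adjusted p = 2.08e-10). In the IP, Dll1 and Dll4 were under 1 CPM in every pool.

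Among target genes, Hes1 and Nrarp were present in both systems, and the Hey genes and Hes5 were at or near 0 in cEND cells. Hes1 had 44.7, 36.8 and 54.5 CPM in cEND cells, against 16.9, 16.4, 12.4 and 14.3 CPM in the IP (log2 fold change 1.59 ± 0.15, adjusted p = 9.99e-07), and the feedback inhibitor Nrarp had 50.7, 93.7 and 75.7 CPM in cEND cells, against 155, 149.5, 155 and 147 CPM in the IP (log2 fold change -1.05 ± 0.17, adjusted p = 0.000195). Neither was called, and the groups did not overlap for either. Hey1 had 1.38, 1.56 and 0.500 CPM in cEND cells, against 255, 221, 206 and 196 CPM in the IP (log2 fold change -7.63 ± 0.29, adjusted p = 3.15e-09). Heyl had 0 in each of the 3 cEND libraries, against 294, 286, 275 and 317 CPM in the IP, at least 2578-fold lower in cEND cells. Hey2, a factor of arterial endothelium, had 0 in each of the 3 cEND libraries, against 33.9, 36.3, 30.2 and 33.7 CPM in the IP, at least 295-fold lower, and Hes5, a target best known in neural progenitors and astrocytes, had 0 in each of the 3 cEND libraries, against 58.9, 39.4, 51.7 and 44.3 CPM in the IP, at least 427-fold lower. INPUT held 62.2 to 70.1 CPM of Hey1, 36.2 to 42.8 of Heyl, 6.10 to 8.32 of Hey2 and 7.79 to 11.1 of Hes5. All of these transcripts were higher in the IP than in INPUT with no overlap, as were the shares of the astrocyte and pan-endothelial lists.

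**Figure D4:**
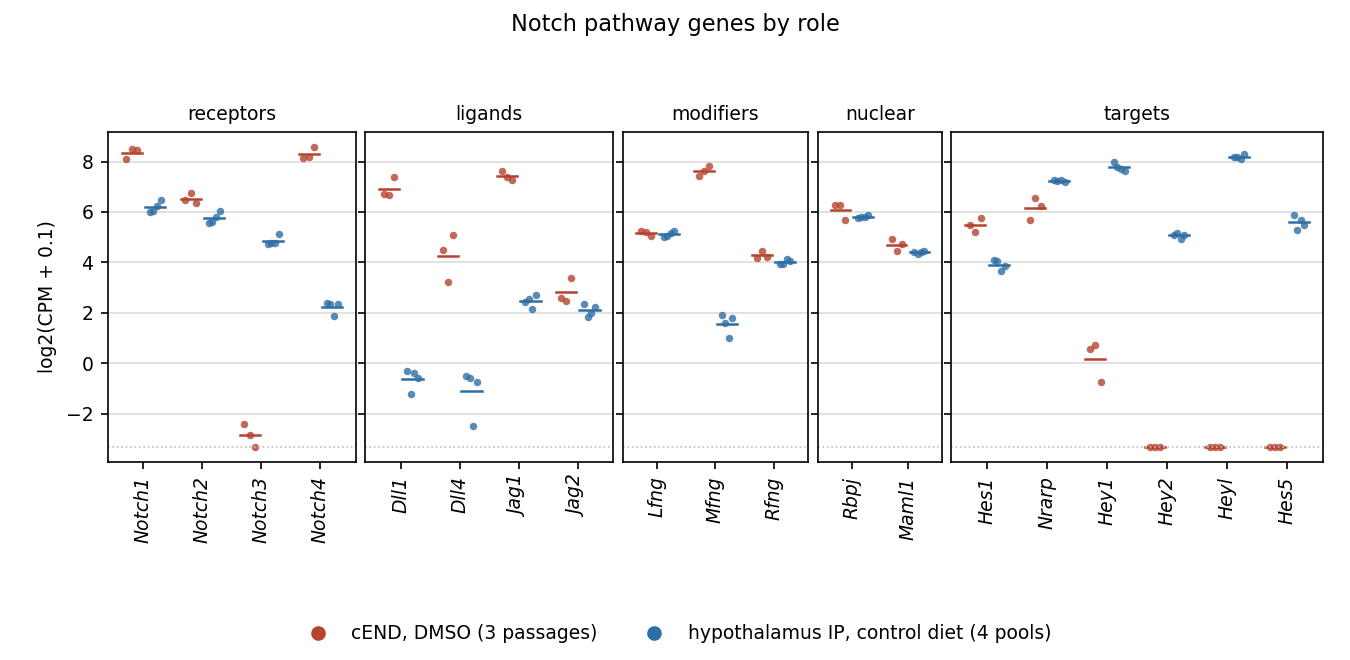
Notch pathway genes by role as log2(CPM + 0.1) in each library, cEND left of IP; bars are means of the log2 values and the dotted line marks 0 CPM. Notch4, Dll1, Dll4, Jag1 and Mfng are higher in cEND cells, and Notch3, Hey1, Hey2, Heyl and Hes5 lie at or near the dotted line there, apart from Hey1 at 0.500 to 1.56 CPM.

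The promoter windows of Hes5 and Hey2 are shown because both genes had 0 counts in every cEND library while the receptors were present. They hold the 250 bases before the RefSeq start (GRCm38.p6), at chr4:154960673-154960922 on the plus strand for Hes5 and chr10:30842784-30843033 on the minus strand for Hey2. Capitals mark TGGGAA, the core recognised by RBPJ, the DNA-binding partner of Notch, read on either strand.
Hes5: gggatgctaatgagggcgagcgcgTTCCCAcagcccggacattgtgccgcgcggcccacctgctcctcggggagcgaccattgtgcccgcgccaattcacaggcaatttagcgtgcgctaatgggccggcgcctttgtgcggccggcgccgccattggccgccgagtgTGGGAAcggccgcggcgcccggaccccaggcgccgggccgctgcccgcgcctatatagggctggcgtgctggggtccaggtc
Hey2: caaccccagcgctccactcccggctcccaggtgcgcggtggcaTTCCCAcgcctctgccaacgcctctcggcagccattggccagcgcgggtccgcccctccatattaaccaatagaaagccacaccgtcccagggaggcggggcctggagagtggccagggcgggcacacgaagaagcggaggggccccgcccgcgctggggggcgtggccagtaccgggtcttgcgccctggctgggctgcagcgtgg

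Hes5 held 2 matches and Hey2 held 1. Windows of Lfng, which was present at like levels in both systems, and of Rbpj, the gene of RBPJ itself, held the motif as well, and the window of Nrarp held none. Hes1, Hey1 and Heyl had no window in the table. Of all 32851 RefSeq windows of this length, 21.6% held the motif, as did 4 of the 16 Notch list members with a window. A match is a description of letters, not of a bound site.

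Most VEGF, angiopoietin and apelin genes tested were called higher in cEND cells. Of 16 VEGF, angiopoietin and apelin genes, 15 were tested, 9 were called higher and 2 lower (median 3.73). Flt4 (VEGF receptor 3) and its ligand Vegfc were higher calls, with log2 fold changes of 5.90 ± 0.16 and 4.94 ± 0.35. The lower calls were Angpt1 and Vegfb. Angpt1, a Tek ligand made mainly outside the endothelium, had 0 in each of the 3 cEND libraries, against 29.2, 33.2, 26.2 and 28.9 CPM in the IP, at least 259-fold lower in cEND cells. Vegfb had 16.7, 19.0 and 21.0 CPM in cEND cells, against 145, 162, 147 and 155 CPM in the IP (log2 fold change -3.01 ± 0.11, adjusted p = 2.16e-10), just past the limit and short of it without passage 12 (-2.93), IP pool 2 (-2.98) or IP pool 4. Vegfa, the main ligand of Kdr, was present in both, at 35.0, 44.6 and 41.4 CPM in cEND cells, against 79.9, 80.6, 66.3 and 73.4 CPM in the IP (log2 fold change -0.90 ± 0.11, adjusted p = 1.19e-05). Apln, the peptide ligand apelin, was high in both, at 344, 654 and 311 CPM in cEND cells, against 110.0, 100.0, 99.4 and 83.5 CPM in the IP (log2 fold change 2.15 ± 0.25, adjusted p = 3.12e-05).

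Most endothelial activation genes, which endothelium raises on inflammatory signals, were abundant in cEND cells given only vehicle. Of 12 members, all tested, 9 were called higher and 0 lower (median 5.86). Sele and Selp encode the leukocyte-tethering selectins. Sele had 255, 102 and 122 CPM in cEND cells, against 0, 0, 0.0394 and 0.151 CPM in the IP (log2 fold change 11.70 ± 0.64, adjusted p = 3.60e-07; 13.31 without IP pool 4). Selp had 179.7, 68.9 and 79.4 CPM in cEND cells, against 0.150, 0.108, 0.354 and 0.113 CPM in the IP (log2 fold change 9.26 ± 0.54, adjusted p = 4.95e-07). Cxcl1, a neutrophil-attracting chemokine, had 458, 163 and 134 CPM in cEND cells, against 0.262, 0.460, 0.472 and 0.227 CPM in the IP (log2 fold change 9.42 ± 0.67, adjusted p = 7.36e-06; 8.66 without passage 12). Passage 12 was the highest cEND library for all of these. Ccl2, a monocyte-attracting chemokine, had 421, 298 and 309.9 CPM in cEND cells, against 2.02, 2.71, 2.09 and 4.01 CPM in the IP (log2 fold change 6.98 ± 0.24, adjusted p = 1.70e-09), Icam1, the leukocyte adhesion molecule, 185, 306 and 304 CPM in cEND cells, against 4.61, 5.79, 3.90 and 5.37 CPM in the IP (log2 fold change 5.74 ± 0.22, adjusted p = 3.04e-09), and Ptgs2 (cyclooxygenase 2) a log2 fold change of 7.89 ± 0.33 (adjusted p = 1.51e-08). Il6 was called higher at a low level, 9.28, 2.51 and 3.50 CPM in cEND cells. Cx3cl1 was not called and its groups overlapped (log2 fold change 1.15 ± 0.30). Vcam1, the other leukocyte adhesion molecule, was the exception in direction, lower in cEND cells by less than 8-fold, at 58.4, 30.9 and 40.4 CPM in cEND cells, against 161, 146, 133 and 174 CPM in the IP (log2 fold change -1.83 ± 0.20, adjusted p = 1.31e-05). INPUT held 22.4 to 28.6 CPM of Vcam1.

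The windows of Cxcl1 and Icam1 are shown as examples of members called higher in cEND cells than in the IP. Their levels did not move together across passages: the cEND library with the most Cxcl1 (458 CPM) had the least Icam1 (185 CPM). Capitals mark GGANTTTCC, a form of the site recognised by NF-kappaB, read on either strand, in the 250 bases before the RefSeq start (GRCm38.p6) at chr5:90890995-90891244 and chr9:21015690-21015939, both on the plus strand.
Cxcl1: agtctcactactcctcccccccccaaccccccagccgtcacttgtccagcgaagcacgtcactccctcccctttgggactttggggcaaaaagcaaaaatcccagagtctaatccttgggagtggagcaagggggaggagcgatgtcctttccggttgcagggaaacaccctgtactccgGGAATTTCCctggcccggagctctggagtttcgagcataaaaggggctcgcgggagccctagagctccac
Icam1: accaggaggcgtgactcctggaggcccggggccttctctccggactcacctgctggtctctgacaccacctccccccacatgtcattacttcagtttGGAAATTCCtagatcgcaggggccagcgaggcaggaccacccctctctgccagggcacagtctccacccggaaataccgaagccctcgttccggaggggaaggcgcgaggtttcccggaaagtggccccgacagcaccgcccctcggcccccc

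This spelling was 1 of 7 counted and was chosen after the counts were seen, so its counts are no test of enrichment. It occurred in 1.07% of all 32851 windows and in windows of 5 of the 10 members that had one: Cxcl1, Icam1, Il6, Nfkbia and Tnfaip3. The windows of Sele, Selp and Ptgs2 did not hold these letters, and Vcam1 and Ccl2 had no window in the table. Here too a match describes letters, not a bound site.

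Arterial and venous markers were called in both directions against the IP, which does not by itself give the vessel type of cEND cells. Of 10 members, 9 were tested, 3 were called higher and 3 lower (median 0.26, below 0 with TMM, upper-quartile or DESeq2 scaling). Of all tested genes, 12.9% were called higher and 21.4% lower. The venous receptor Ephb4 had 447, 453 and 579.9 CPM in cEND cells, against 4.31, 4.28, 4.25 and 5.10 CPM in the IP (log2 fold change 6.78 ± 0.14, adjusted p = 5.70e-12). The arterial ligand Efnb2, its partner, had 49.0, 40.6 and 39.5 CPM in cEND cells, against 7.30, 6.90, 7.17 and 5.48 CPM in the IP (log2 fold change 2.68 ± 0.13, adjusted p = 3.06e-09) and was not called. Ackr1, a chemokine-binding protein of venules, had 1 count over all cEND libraries, against 6.67, 6.77, 5.28 and 7.34 CPM in the IP, with more in every INPUT library (median 19.4 CPM). The arterial kinase Bmx had 1 count over all cEND libraries, against 1.31, 1.54, 1.10 and 2.19 CPM in the IP. Gkn3, also called lower, had 0 counts in every cEND library and 0.379 to 0.824 CPM in the IP.

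Basement membrane genes were among the most abundant of cEND cells. Of 13 members, all tested, 9 were called higher and 0 lower (median 5.64). Col4a1 and Col4a2 encode the chains of the main network collagen of vessel basement membranes. Col4a1 had 3360, 4890 and 6503 CPM in cEND cells, against 6.25, 5.60, 4.33 and 6.39 CPM in the IP (log2 fold change 9.76 ± 0.28, adjusted p = 3.61e-10). Col4a2 had 1411, 2183 and 2831 CPM in cEND cells, against 7.30, 7.07, 6.46 and 8.77 CPM in the IP (log2 fold change 8.18 ± 0.27, adjusted p = 1.15e-09), and Lama5, the laminin alpha chain of mature brain vessels, a log2 fold change of 8.47 ± 0.15 (adjusted p = 3.69e-12). Sparc, a collagen-binding secreted protein, was abundant in both and higher in the IP, at 2063, 2395 and 3088 CPM in cEND cells, against 7973, 9387, 10438 and 9853 CPM in the IP (log2 fold change -1.90 ± 0.16, adjusted p = 3.15e-07).

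Genes of TGF-beta signalling and of mesenchymal character were mostly higher in cEND cells. Of 20 members, 19 were tested, 10 were called higher and 1 lower (median 3.24). Thbs1, thrombospondin 1, had 126, 522 and 78.8 CPM in cEND cells, against 0.974, 0.758, 0.945 and 1.25 CPM in the IP (log2 fold change 7.96 ± 0.92, adjusted p = 0.000191; 6.72 without passage 14). Passage 14 was the highest cEND library for it. Acvrl1, the endothelial receptor ALK1, had a log2 fold change of 8.28 ± 0.18 (adjusted p = 1.11e-11), and Vim, vimentin, one of 5.09 ± 0.13 (adjusted p = 2.45e-11). The transcription factors Zeb1 (-1.45 ± 0.10), Zeb2 (-1.77 ± 0.11) and Id3 (-1.42 ± 0.08) were lower in cEND cells without reaching 8-fold, and Cdh2 was the lower call.

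Cell cycle genes were higher in cEND cells, all but 1 of them past the 8-fold limit. Of 20 cell cycle genes, all tested, 19 were called higher and 0 lower (median 8.09). They made up 0.423 to 0.541% of counts in cEND cells and 0.0172 to 0.0201% in the IP. Mki67, the proliferation antigen Ki-67, had 489, 653 and 406 CPM in cEND cells, against 0.749, 0.975, 1.06 and 1.59 CPM in the IP (log2 fold change 8.89 ± 0.25, adjusted p = 2.49e-10). Top2a, topoisomerase II alpha, had 578, 582 and 465 CPM in cEND cells, against 0.936, 0.596, 1.81 and 1.13 CPM in the IP (log2 fold change 8.96 ± 0.27, adjusted p = 5.51e-10). Pcna, the DNA polymerase clamp, was the member that was not called, at 273, 263 and 233 CPM in cEND cells, against 88.9, 86.4, 90.5 and 81.7 CPM in the IP (log2 fold change 1.56 ± 0.09, adjusted p = 8.00e-09).

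Among all tested genes, those with the largest gaps were taken from genes with at least 100 CPM on average in the higher group. Higher in cEND cells were Hist1h2ap and Hist1h3h (replication histones), Slfn4 and Plac8 (genes best known from myeloid cells), Stab1 (a scavenger receptor of sinusoidal endothelium), Rhox5 (a reproductive homeobox gene), Adgrg3 (an adhesion receptor) and Plau (urokinase). Stab1 had 1231, 1259 and 1880 CPM in cEND cells, against 0.412, 0.108, 0.315 and 0.492 CPM in the IP (log2 fold change 12.16 ± 0.32, adjusted p = 1.73e-10). Plau had 556, 552 and 877 CPM in cEND cells, against 0.262, 0.271, 0 and 0.113 CPM in the IP (log2 fold change 11.87 ± 0.37, adjusted p = 1.41e-09). Rhox5 had 244, 227 and 259 CPM in cEND cells, against 0.0749, 0.0541, 0.0787 and 0 CPM in the IP (log2 fold change 12.08 ± 0.20, adjusted p = 3.56e-12). Hist1h2ap, Hist1h3h and Slfn4 have near-identical relatives among which reads can be split, so that their values are uncertain.

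Lower in cEND cells were Slc6a11 (the GABA transporter GAT3 of astrocytes), Nnat (neuronatin), Atp1b2 (a sodium pump subunit of glia), Vsnl1 (visinin-like 1 of neurons), Tmem229a, Kif1a (a motor of synaptic vesicle precursors), Aqp4 and Hlf (a circadian output factor). Each of these 8 had 0 counts in every cEND library. Slc6a11 had 3748, 3796, 4181 and 4399 CPM in the IP, at least 35475-fold above the limit in cEND cells, and Hlf had 631, 609, 731 and 565 CPM, at least 5578-fold above it. The most abundant genes of cEND cells were Eef1a1 (an elongation factor), Actb (beta-actin), Col4a1, Pkm (pyruvate kinase) and Ahnak (a large scaffold protein), of which Eef1a1, at 11218, 9885 and 10655 CPM in cEND cells, against 1077, 1059, 1068 and 1031 CPM in the IP, has many processed copies in the genome and is uncertain for that reason. The 100 most abundant genes held 15.4% of counts in cEND cells and 25.3% in the IP.

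**Figure D5:**
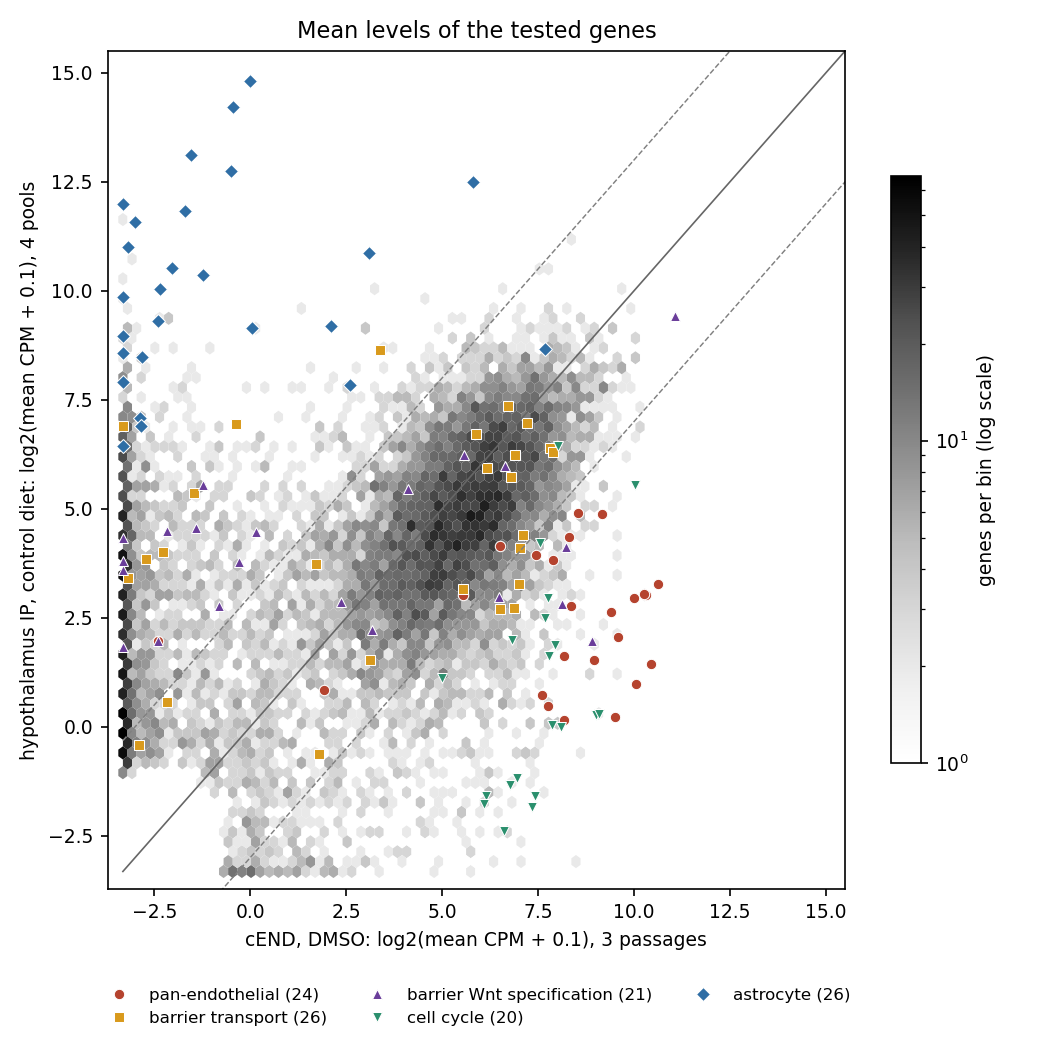
Mean level of each of the 14622 tested genes in cEND cells (horizontal) and in the IP (vertical), both as log2(mean CPM + 0.1), with grey shading for genes per bin, a solid line at equal levels and dashed lines 8-fold away. Pan-endothelial and cell cycle genes lie mostly below the lower dashed line and astrocyte genes above the upper one, while transporter and barrier Wnt genes fall on both sides.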

How the data were processed

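RNA sequencing was analysed from a pair of deposited tables that hold estimated counts per Ensembl gene, not scaled to a common total, as the deposited values themselves show (17.3% of values in the bacTRAP table and 19.8% in the cEND table were not whole). Genome build GRCm38 is named in the submitters' processing notes. The counting program, its strand setting, the annotation release, the RNA selection and the treatment time of cEND cells are not given in the sources used here. Without a known strand setting, reads of overlapping antisense genes cannot be told apart. Replicates are passages or pools, and p-values measure only the spread between these libraries.

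Estimated counts were rounded. Of 44674 shared genes, 44118 matched GENCODE release M21, and 21407 were protein-coding after 13 mt- genes were set aside. Their sum, 80.1 to 82.3% of the total in cEND cells and 89.0 to 89.6% in the IP, was the library size. No library pair agreed within sampling noise. The 7 libraries were fitted with edgeR 4.0.16 (R 4.3.3; filterByExpr, robust quasi-likelihood fit, no further scaling) and no covariate, and the procedure was tested on simulated data. Alternatives were TMM or upper-quartile factors, DESeq2 1.42.0, no filter, totals of all shared genes, limits of 2 and 4 on the log2 scale, percentile ranks (a gap of 25 points without overlap) and leaving out each library.

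Members and lists were chosen with earlier results of these data known, and no list was tested as a set. Named genes are those of a panel, up to 3 members per list and direction with the largest fold change, the 8 genes per direction with the largest fold change at 100 CPM or more, and the 5 most abundant per group. Other list members named were chosen after their values were seen. A few list members are counted but not reported here by name.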

Additional observations from a re-analysis of the deposited data

Results flagged for a closer look

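Among 210 values screened, 12 had 1 of the 4 IP pools apart from the other pools by more than Dixon's 95% critical value, which chance passes in about 1 of 20 groups. The number flagged was near that rate, so single flags carry little weight. Pool 1 was high for Cav1 (19.7 CPM, the others 13.0 to 14.1) and low for the claudin share (0.0124%, the others 0.0128%). Pool 3 was low for genes that include endothelial ones: Notch4 (3.54 CPM, the others 4.95 to 5.13), Ptprb, an endothelial phosphatase (20.2 CPM, the others 33.0 to 33.5), Nkd1 (10.2 CPM, the others 15.0 to 15.1) and Slc22a8 (5.00 CPM, the others 11.9 to 12.8). Pool 4 was high for Lrp5 (20.2 CPM, the others 15.8 to 16.5), Ephb4 (5.10 CPM, the others 4.25 to 4.31), Notch3 (34.5 CPM, the others 26.4 to 27.1), Slc7a5 (61.6 CPM, the others 49.7 to 50.7), Ptprz1, a phosphatase of glia (1069 CPM, the others 681 to 715), and the precursor marker share (0.137%, the others 0.0940 to 0.1005%). Ptprz1 made up most of that share, so its flag and that of the share are not separate.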

How the results depend on the processing

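No paired analysis was possible because the groups share no replicate number: cEND libraries are numbered by passage and IP libraries by pool. Of 215 genes that the naming rule or the later choice took, 204 kept their call and direction under the 12 alternatives that keep the limit of 3, 10 crossed it under at least 1, and Insr changed sign (TMM -0.16, upper quartile -0.13, DESeq2 -0.25). Of those genes, 162 were called with the limit of 3, 178 with a limit of 2 and 141 with a limit of 4. Over all genes, those called higher numbered 3142 with a limit of 2 and 1219 with a limit of 4 on the log2 scale, and 1870 to 1919 without single libraries. Lower calls numbered 3015 to 3251 without single libraries. The median of all tested genes was -0.23 with TMM factors, -0.19 with upper-quartile factors, -0.41 with DESeq2 and 0.03 with totals of all shared genes. The transporter median moved with it and changed sign (-0.16, -0.12 and -0.24 with TMM, upper quartile and DESeq2), as did the artery and vein median (-0.14, -0.10 and -0.31, and -1.09 to 1.49 without single libraries). The pericyte and smooth muscle median ran from -1.88 to 0.18 without single libraries. Apart from the settings with another limit, list members called lower numbered 2 to 5 for pericyte and smooth muscle and 5 to 8 for choroid plexus, and those called higher 4 to 6 for caveolae and fenestrae and 3 to 6 for ribosomal proteins. With DESeq2 the medians were 0.58 for tight junction, -4.35 for barrier Wnt and -13.93 for astrocyte genes, and the astrocyte median was -13.88 to -13.26 without single libraries. The scalings move every gene by a like amount, and the cause of the other shifts was not tested. Levels under about 0.1 CPM are at the limit of the depth.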

Other observations

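Of 18 glucose transport and glycolysis genes, 17 were tested, 1 was called higher in cEND cells and 0 lower, against 12.9% and 21.4% of all tested genes (median -0.26). The call was Hk2, an inducible hexokinase, at 68.3, 46.0 and 27.6 CPM in cEND cells, against 5.17, 4.68, 4.21 and 5.26 CPM in the IP (log2 fold change 3.29 ± 0.28, adjusted p = 1.99e-06), and it was under the limit with TMM (2.88), upper-quartile (2.92) or DESeq2 scaling (2.80) and without passage 12 (2.93). Isoforms on this list differed below the limit: Pkm had a log2 fold change of 2.61 ± 0.10 and Ldha, lactate dehydrogenase A, of 1.61 ± 0.12, while Pfkm, the muscle phosphofructokinase, had -2.05 ± 0.10. Aldoc, the brain form of aldolase, was counted on the astrocyte list instead and lay far past the limit. It had 0.188 to 0.266 CPM in cEND cells and 8338 to 9257 CPM in the IP (log2 fold change -15.16 ± 0.20), against 1.01 ± 0.10 for Aldoa, another aldolase gene. Gapdh, at 892, 1110 and 957 CPM in cEND cells, against 3299, 3609, 3799 and 3673 CPM in the IP, has many processed copies and is uncertain. Of 18 fatty acid genes, all tested, 2 were called higher and 4 lower, a share near that of all tested genes (median -0.42). Fabp7, the fatty acid binding protein of glia, had 0.133, 0.190 and 0 CPM in cEND cells, against 509, 387, 317 and 333 CPM in the IP (log2 fold change -11.86 ± 0.40, adjusted p = 1.67e-09; -12.66 without passage 14 and -11.17 without passage 18). Fabp4, its relative in capillary endothelium and fat, had 9.02, 9.53 and 22.0 CPM in cEND cells, against 0.0374, 0.0541, 0.0394 and 0.0378 CPM in the IP (log2 fold change 8.15 ± 0.50, adjusted p = 5.56e-08). None of Acadl, Acadm, Acadvl, Acaa2, Hadha, Hadhb, Etfdh and Cpt2, enzymes of mitochondrial fatty acid oxidation on the list, was called.

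Ribosomal protein genes took 2.11 to 2.26% of counts in cEND cells, 0.529 to 0.603% in the IP and 0.986 to 1.08% in INPUT. Of 35 members, 5 were called higher and 0 lower (median 1.98), with Rplp0 at 4.26 ± 0.10, against Rps2 at -2.44 ± 0.09. The share called higher was near that of all tested genes (12.9%), of which 21.4% were called lower. Many of these genes have processed copies among which reads can be split.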
